A study of Homo sapiens with 9 samples.

Results

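Lysosomal enzymes and membrane proteins were compared between MDA-MB-231 cells, an established line from a human breast cancer, and 2 of its derivatives, of which 1 resists docetaxel and 1 resists paclitaxel. The 37 genes are a named list of hydrolases, cathepsins and membrane proteins of the lysosome. Membership has no threshold on measured values, but the list was chosen with earlier results of these data known. Of the 37 genes, 36 had a value, out of 11963 genes with a value. The remaining gene, GLB1, which encodes lysosomal beta-galactosidase, was represented only in a probe set that also names a second gene, and is not analysed here. The 36 genes were covered by 70 probe sets, with 14 genes in more than 1 probe set and 22 in a lone probe set. The probe set with the strongest average signal stood for its gene, and 28 of the 36 genes lay at or above the median level of all genes.

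Total RNA came from 3 passages of each line, which gave 9 Affymetrix arrays in 3 groups. All 3 groups were grown with 1 µM verapamil, which blocks calcium channels and the efflux pump P-glycoprotein. Docetaxel-resistant cells also received 2 nM docetaxel, paclitaxel-resistant cells 7 nM paclitaxel, and sensitive cells neither of these microtubule-stabilizing taxanes. Each resistance was represented by 1 line, so the taxane in the culture and the selection of the line cannot be told apart in comparisons with sensitive cells, and the p-values measure the spread among passages. Because whole cultures were measured, fewer cells expressing a gene and less RNA per cell cannot be told apart.

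Lysosomes are acidic compartments in which proteases, sugar-cleaving and lipid-cleaving enzymes break down material taken up by endocytosis or delivered by autophagy. Most soluble enzymes are tagged with mannose 6-phosphate in the Golgi and carried to the lysosome by receptors, while heavily glycosylated membrane proteins line the compartment and transporters release the products. Transcription factors of the MiT/TFE family (TFEB, TFE3 and MITF) bind E-box sequences near the start of many lysosomal genes. In cancer cells several cathepsins are also secreted and cleave extracellular matrix, and lysosomes take up and hold weakly basic drugs.

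The E-box bound by this family was looked for in the promoters, and the promoters shown here belong to genes whose level differed between lines and which held it. A RefSeq window (GRCh38.p14) of 300 bases, with 250 before and 50 from the transcription start, was available for 26 of the 37 genes, in 40 windows. CACGTG was present in 9 of the 40 windows (22.5%), against 2548 of all 35116 windows (7.26%). The longer form TCACGTGA, which contains CACGTG, was present in 5 of the 40 (12.5%), against 344 of all windows (0.98%). Counted by gene, 5 of 26 held it (19.2%), against 321 of all 27305 genes with a window (1.18%). As such sequences are known from many lysosomal genes, these shares describe the gene list and not these cells. Both motifs read the same on either strand. In the sequences below, given 5′ to 3′ along the gene, the capitals mark TCACGTGA or, where the flanking bases differ, CACGTG.

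LAMP1 (chr13:113296989-113297288, plus strand): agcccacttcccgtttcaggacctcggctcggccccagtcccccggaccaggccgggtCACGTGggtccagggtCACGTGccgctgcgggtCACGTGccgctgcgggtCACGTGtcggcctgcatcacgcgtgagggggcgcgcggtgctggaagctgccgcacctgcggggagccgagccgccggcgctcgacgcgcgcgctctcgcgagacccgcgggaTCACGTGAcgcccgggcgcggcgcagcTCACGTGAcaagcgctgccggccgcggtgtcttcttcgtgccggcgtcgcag
MCOLN1 (chr19:7522374-7522673, plus strand): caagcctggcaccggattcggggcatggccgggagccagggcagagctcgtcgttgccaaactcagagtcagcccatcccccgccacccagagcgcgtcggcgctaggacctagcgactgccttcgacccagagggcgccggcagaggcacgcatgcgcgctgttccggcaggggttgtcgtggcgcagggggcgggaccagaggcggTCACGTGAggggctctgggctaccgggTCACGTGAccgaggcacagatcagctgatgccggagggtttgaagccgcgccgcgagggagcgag
GAA (chr17:80101331-80101630, plus strand): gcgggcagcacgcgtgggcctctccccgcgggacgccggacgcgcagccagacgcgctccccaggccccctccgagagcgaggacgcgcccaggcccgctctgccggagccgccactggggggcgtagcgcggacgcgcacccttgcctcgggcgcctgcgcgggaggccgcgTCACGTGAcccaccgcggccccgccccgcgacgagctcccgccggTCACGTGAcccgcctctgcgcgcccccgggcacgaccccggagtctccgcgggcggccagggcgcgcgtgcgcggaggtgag
CTSD (chr11:1763878-1764177, minus strand): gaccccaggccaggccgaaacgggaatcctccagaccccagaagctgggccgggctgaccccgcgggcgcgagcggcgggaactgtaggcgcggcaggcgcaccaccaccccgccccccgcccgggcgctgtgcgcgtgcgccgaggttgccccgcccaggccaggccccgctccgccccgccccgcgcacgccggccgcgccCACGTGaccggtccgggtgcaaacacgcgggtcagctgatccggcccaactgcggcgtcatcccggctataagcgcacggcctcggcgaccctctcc
NEU1 (chr6:31862772-31863071, minus strand): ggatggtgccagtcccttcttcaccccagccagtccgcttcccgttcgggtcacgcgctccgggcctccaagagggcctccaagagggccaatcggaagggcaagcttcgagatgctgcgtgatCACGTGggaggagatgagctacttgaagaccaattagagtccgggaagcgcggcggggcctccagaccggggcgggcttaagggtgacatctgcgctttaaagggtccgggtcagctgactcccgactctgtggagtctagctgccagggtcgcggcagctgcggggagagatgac

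LAMP1, MCOLN1 and GAA each held TCACGTGA at 2 positions. In LAMP1 these began 29 and 2 bases before the start site, in MCOLN1 42 and 15 bases before it, and in GAA 77 and 32 bases before it. LAMP1 held 4 further copies of CACGTG, between 192 and 142 bases before the start. CTSD and NEU1 held CACGTG alone, beginning 47 and 126 bases before the start. The direction of difference was not shared: as described below, LAMP1, MCOLN1, CTSD and NEU1 were lower in both resistant lines, whereas GAA was higher in the paclitaxel-resistant line. CTSA and GALNS held TCACGTGA, and ARSB and CD63 held CACGTG, and none of these 4 genes was called in any comparison. A match of letters describes the window and was not tested as a binding site.

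Differences were tested on log2(intensity + 16) after quantile normalization with limma's moderated test, and a gene is called when its Benjamini-Hochberg adjusted p over 11963 genes is below 0.05. Of all genes, 21% were called between docetaxel-resistant and sensitive cells (10.8% higher, 10.2% lower; 32.6% had an unadjusted p below 0.05), against 19 of the 36 lysosomal genes, with 6 higher (16.7%) and 13 lower (36.1%). Between paclitaxel-resistant and sensitive cells 21.6% of all genes were called (10.8% higher, 10.7% lower; 32.4% had an unadjusted p below 0.05), and again 19 of the 36 lysosomal genes, with 7 higher (19.4%) and 12 lower (33.3%). Genes with stronger signal are called more often: among the 5982 genes at or above the median level, 17.1% were higher and 16.1% lower in the docetaxel-resistant line, and 17.7% and 16.5% in the paclitaxel-resistant line. Among the 28 lysosomal genes at that level, 5 were higher (17.9%) and 10 lower (35.7%) in the docetaxel-resistant line, and 6 (21.4%) and 10 (35.7%) in the paclitaxel-resistant line. The share of higher genes was thus near the background, and the share of lower genes was above it in both lines. These shares describe a list chosen with earlier results of these data known, and were not tested as a set.

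The median log2 difference over the 36 genes was -0.19 in the docetaxel-resistant line, against -0.05 over all genes, and -0.32 in the paclitaxel-resistant line, against -0.02 over all genes. Normalized values of the 3 docetaxel-resistant and the 3 sensitive arrays did not overlap for 6 genes that were higher and 16 that were lower, against 36.8% of all genes in either direction. For the paclitaxel-resistant line these numbers were 7 and 16, against 34.8% of all genes. These comparisons use the same 3 sensitive arrays, so their results are not independent of each other. The counts depended on individual arrays. In the docetaxel-resistant line the 13 lower genes became 7 without sensitive array 2, 8 without docetaxel-resistant array 2 and 7 without docetaxel-resistant array 3, and the 6 higher genes became 3 without sensitive array 2 or docetaxel-resistant array 3. In the paclitaxel-resistant line the 12 lower genes became 7 without paclitaxel-resistant array 2, and the 7 higher genes became 4 without sensitive array 1, paclitaxel-resistant array 1 or paclitaxel-resistant array 2.

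Lined up by gene, 8 of the 36 were lower in both resistant lines with no called difference between those lines (LAMP1, CTSD, CTSL, CTSS, TPP1, PSAP, NEU1 and MCOLN1), and 5 were higher in both (CTSH, IDS, MANBA, SCARB2 and ASAH1). CPVL was lower in both and also differed between the resistant lines. Of all genes, 7.02% were lower in both and 7.36% higher in both. GUSB was lower in the docetaxel-resistant and higher in the paclitaxel-resistant line, a pattern that 3 of all 11963 genes had (0.0251%), while the opposite pattern was found in 5 (0.0418%) and in none of the 36. A called difference from sensitive cells was found in the docetaxel-resistant line alone for LIPA, GLA, IDUA and MAN2B1, and in the paclitaxel-resistant line alone for GAA, CTSC, LGMN and NPC2. For GAA and CTSC the difference between the resistant lines was itself called, and for the other 6 it was not. The remaining 13 genes were called in no comparison.

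**Figure D1:**
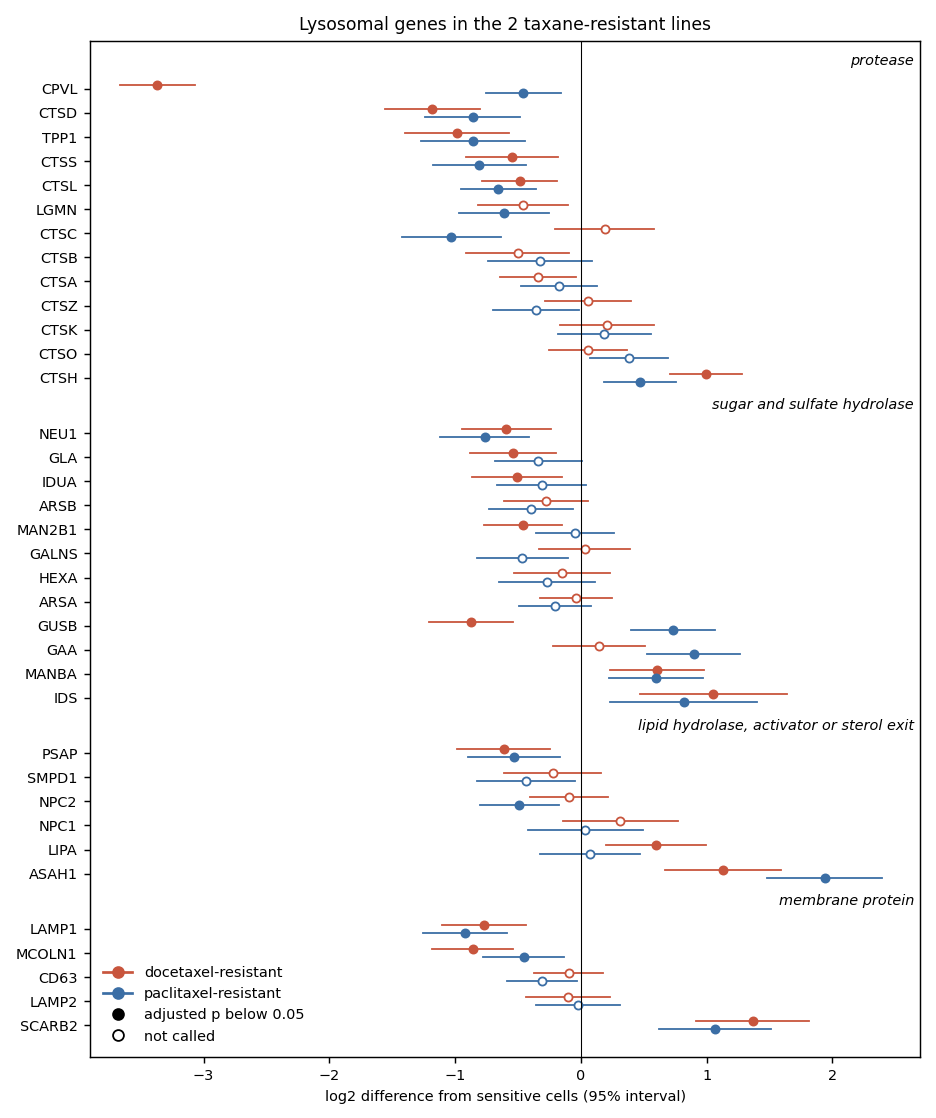
Log2 difference from sensitive cells for the 36 lysosomal genes, ordered by role, in the docetaxel-resistant (red) and paclitaxel-resistant (blue) line, with 95% intervals (n = 3 arrays per group); filled points have an adjusted p below 0.05. The largest decrease is CPVL in the docetaxel-resistant line (-3.37), the largest increase is ASAH1 in the paclitaxel-resistant line (1.94), and GUSB has its points on opposite sides of 0.

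Among the 13 proteases and protease-like genes, 5 were lower and 1 higher in the docetaxel-resistant line (median difference -0.46), and 7 were lower and 1 higher in the paclitaxel-resistant line (median -0.46), against the medians of -0.05 and -0.02 over all genes. Called lower were thus 38.5% and 53.8% of them, against 10.2% and 10.7% of all genes and 16.1% and 16.5% of genes at or above the median level. Called higher were 7.69% in each line, against 10.8% of all genes in each and 17.1% and 17.7% of genes at that level. CPVL, a serine carboxypeptidase-like protein, had deposited intensities of 182, 113 and 152 in sensitive cells, 0.62, 0 and 0.89 in docetaxel-resistant cells, and 134, 85.0 and 104 in paclitaxel-resistant cells. The docetaxel-resistant arrays were thus at or near 0, and the paclitaxel-resistant arrays lay slightly below or within the range of the sensitive ones. The log2 difference was -3.37 ± 0.14 (SE, adjusted p = 3.00e-08) in the docetaxel-resistant line and -0.46 ± 0.14 (adjusted p = 0.0335) in the paclitaxel-resistant line. With values this close to 0 the size of the first difference is set by the added constant: it was -6.82 with a constant of 1 and -1.71 with a constant of 64, and no fold is given. The call in the paclitaxel-resistant line ended without any 1 of sensitive arrays 1 and 3, docetaxel-resistant arrays 1 and 2 and paclitaxel-resistant arrays 2 and 3 (adjusted p 0.051 to 0.121).

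Since CPVL, CTSS and LGMN are prominent in macrophages and other antigen-presenting cells, markers of blood cells were read beside them. Of 12 measured markers 1, CSF1R, was called, at -0.49 ± 0.13 and -0.47 ± 0.13. This share of lower markers, 8.33% in each line, was near the 10.2% and 10.7% of all genes. In each group 4 of the 12 lay at or above the median intensity of all genes. Mean intensity was under 16 for 3 of the 12 in sensitive cells and for 4 in each resistant line. Among these low markers were CD45 (PTPRC), TYROBP and LYZ, at most 9.9, 11 and 3.15 in any group. The summed intensity of the list ran from 2006 to 3297 in sensitive, 2560 to 2989 in docetaxel-resistant and 2149 to 2349 in paclitaxel-resistant arrays. The sensitive range overlapped both others, and the paclitaxel-resistant arrays all lay below the docetaxel-resistant ones. Most of these sums came from SRGN and LAPTM5, and their part in the results was not tested.

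CTSD encodes cathepsin D, the main aspartic protease of the lysosome, and its intensities were 585, 445 and 625 in sensitive, 260 (260.14), 291 and 209 in docetaxel-resistant and 359, 244 and 291 in paclitaxel-resistant cells. Every array of both resistant lines lay below every sensitive array. Mean intensity fell to 0.459 of the sensitive mean in the docetaxel-resistant and to 0.540 of it in paclitaxel-resistant cells. The log2 differences were -1.18 ± 0.17 (adjusted p = 0.000665) and -0.86 ± 0.17 (adjusted p = 0.00419). TPP1, a tripeptidyl peptidase lost in a childhood neuronal ceroid lipofuscinosis, read 759, 1064 and 930 in sensitive, 509, 461 and 455 in docetaxel-resistant and 517, 464 and 496 in paclitaxel-resistant cells. Here too the resistant arrays all lay below the sensitive ones, with differences of -0.99 ± 0.19 (adjusted p = 0.00341) and -0.86 ± 0.19 (adjusted p = 0.00703). The CTSD calls held in each of the 21 alternative settings, and the TPP1 calls were lost in 1, where probe sets ending in _x_at or _s_at were removed (adjusted p = 0.0797 and 0.807).

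CTSL and CTSS, cysteine cathepsins of which the latter is best known from antigen-presenting cells, were lower in both lines. CTSL had a mean intensity of 488 ± 24.0 (SD, n = 3) in sensitive, 371 ± 43.8 in docetaxel-resistant and 309 ± 58.8 in paclitaxel-resistant cells, with log2 differences of -0.49 ± 0.14 (SE, adjusted p = 0.0255) and -0.66 ± 0.14 (adjusted p = 0.00507). CTSS was weakly expressed, at 38.7 ± 12.3, 23.5 ± 4.29 and 16.2 ± 1.55, and differed by -0.55 ± 0.17 (adjusted p = 0.0380) and -0.81 ± 0.17 (adjusted p = 0.00523). LGMN, the asparaginyl endopeptidase that processes several cathepsins, was lower in the paclitaxel-resistant line by a log2 difference of -0.61 ± 0.16 (adjusted p = 0.0204), and its -0.46 in the docetaxel-resistant line was not called (adjusted p = 0.0694). In the docetaxel-resistant line the CTSL call ended without sensitive array 2 or 3 or docetaxel-resistant array 1 or 2 (adjusted p 0.0667 to 0.0938), and the CTSS call without sensitive array 1 or 3, docetaxel-resistant array 2 or 3 or paclitaxel-resistant array 2 or 3 (0.0509 to 0.143). The LGMN call ended without sensitive array 2 or 3 or paclitaxel-resistant array 2 or 3 (0.0536 to 0.0797).

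CTSC, the dipeptidyl peptidase that activates granule serine proteases, was lower in the paclitaxel-resistant line and differed between the resistant lines. Its intensities were 663, 299.5 and 532 in sensitive, 502, 567 and 675 in docetaxel-resistant and 265, 218 and 201 in paclitaxel-resistant cells. The paclitaxel-resistant arrays lay below all others, and sensitive array 2 was the lowest of the remaining 6. The log2 difference was -1.03 ± 0.18 (adjusted p = 0.00186) against sensitive cells and -1.22 ± 0.18 (adjusted p = 0.00569) against docetaxel-resistant cells, whereas docetaxel-resistant minus sensitive cells gave 0.19, with a 95% interval from -0.20 to 0.58. CTSH, an aminopeptidase of the cathepsin family, was the protease that was higher. It read 180 (179.66), 163 and 193 in sensitive, 376, 461 and 384 in docetaxel-resistant and 281, 249 and 246 in paclitaxel-resistant cells, so that the 3 groups did not overlap. The differences from sensitive cells were 1.00 ± 0.13 (adjusted p = 0.000349) and 0.47 ± 0.13 (adjusted p = 0.0248), and the difference of -0.53 between the resistant lines was not called (adjusted p = 0.0697). The call in the paclitaxel-resistant line ended without sensitive array 1 or 3 or any paclitaxel-resistant array (adjusted p 0.058 to 0.073).

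CTSA, CTSB, CTSK, CTSO and CTSZ were not called. Differences in the docetaxel-resistant and the paclitaxel-resistant line were -0.34 and -0.17 for CTSA, the protective protein of beta-galactosidase and neuraminidase, and -0.50 (adjusted p = 0.0820) and -0.32 for CTSB. They were 0.21 and 0.19 for CTSK, the collagenolytic cathepsin of osteoclasts, 0.05 and 0.39 for CTSO, and 0.06 and -0.36 for CTSZ.

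The 12 measured sugar and sulfate hydrolases gave 5 lower and 2 higher genes in the docetaxel-resistant line (median difference -0.21), and 1 lower and 4 higher in the paclitaxel-resistant line (median -0.24). In the docetaxel-resistant line 41.7% were lower, against 10.2% of all genes and 16.1% of those at or above the median level. There 16.7% were higher, against 10.8% of all genes and 17.1% of genes at that level. In the paclitaxel-resistant line 33.3% were higher, against 10.8% and 17.7%, and 8.33% were lower, against 10.7% and 16.5%. GUSB, or beta-glucuronidase, which removes glucuronic acid from glycosaminoglycans, had intensities of 548, 540.5 and 564 in sensitive, 309, 340.4 and 302 in docetaxel-resistant and 945, 1083 and 828 in paclitaxel-resistant cells. All 3 groups were separate, with the docetaxel-resistant arrays lowest and the paclitaxel-resistant arrays highest. The log2 differences were -0.87 ± 0.15 (adjusted p = 0.00207) in the docetaxel-resistant and 0.73 ± 0.15 (adjusted p = 0.00527) in the paclitaxel-resistant line, and 1.61 ± 0.15 (adjusted p = 0.000259) between them, where the ratio of mean intensities was 3.0. GUSB has related pseudogenes, and how far its probe set reads their transcripts is not given in the sources used here. GUSB is widely used as a reference gene in transcript quantification.

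GAA, the acid alpha-glucosidase that degrades glycogen in lysosomes, read 92.5, 88.5 and 116 in sensitive, 125, 158 and 108 in docetaxel-resistant and 230 (229.67), 171 and 217 in paclitaxel-resistant cells. The paclitaxel-resistant arrays lay above all others, and the other groups overlapped. The difference was 0.90 ± 0.17 (adjusted p = 0.00285) against sensitive and 0.75 ± 0.17 (adjusted p = 0.0453) against docetaxel-resistant cells, and 0.14 with an interval from -0.22 to 0.51 between docetaxel-resistant and sensitive cells. The call between the resistant lines ended without sensitive array 3, any docetaxel-resistant array or any paclitaxel-resistant array (adjusted p 0.0661 to 0.157).

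IDS and MANBA were higher in both lines. IDS, the iduronate sulfatase of heparan and dermatan sulfate breakdown, read 132, 137 and 348 in sensitive, 444, 405 and 509 in docetaxel-resistant and 415, 365 and 306 in paclitaxel-resistant cells. Sensitive array 3 stood apart from the other sensitive arrays and inside the range of the paclitaxel-resistant ones. The differences were 1.05 ± 0.27 (adjusted p = 0.0158) and 0.82 ± 0.27 (adjusted p = 0.0483). In the paclitaxel-resistant line the call ended without any 1 array other than sensitive array 3 (adjusted p 0.0559 to 0.144), and in the docetaxel-resistant line without sensitive array 2 or docetaxel-resistant array 3 (0.053 to 0.0536). MANBA, a beta-mannosidase, had mean intensities of 27.6 ± 9.87, 55.3 ± 10.2 and 51.4 ± 9.56 (SD, n = 3), with differences of 0.60 ± 0.17 (SE, adjusted p = 0.0268) and 0.60 ± 0.17 (adjusted p = 0.0273). Its call ended without sensitive array 2 or docetaxel-resistant array 2 or 3 in the docetaxel-resistant line (adjusted p 0.0877 to 0.0948), and without sensitive array 1 or 2 or paclitaxel-resistant array 1 or 2 in the paclitaxel-resistant line (0.05 to 0.0939).

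NEU1, the lysosomal sialidase, was lower in both lines, with intensities of 416 ± 8.36 in sensitive, 296 ± 43.0 in docetaxel-resistant and 243 ± 45.9 in paclitaxel-resistant cells. The log2 differences were -0.59 ± 0.16 (adjusted p = 0.0221) and -0.76 ± 0.16 (adjusted p = 0.00570). GLA (alpha-galactosidase A), IDUA (alpha-iduronidase) and MAN2B1 (lysosomal alpha-mannosidase) were lower in the docetaxel-resistant line by -0.54 ± 0.16 (adjusted p = 0.0293), -0.51 ± 0.16 (adjusted p = 0.0459) and -0.46 ± 0.14 (adjusted p = 0.0396) on the log2 scale. In the paclitaxel-resistant line these 3 genes were at -0.34, -0.31 and -0.05. In the docetaxel-resistant line the NEU1 call ended without sensitive array 2 or 3 or docetaxel-resistant array 3 (adjusted p 0.0547 to 0.0958), and the GLA call without sensitive array 1 or 2 or docetaxel-resistant array 1 or 3 (0.0748 to 0.105). The IDUA call ended without any 1 array other than sensitive array 1 (0.0557 to 0.165), and the MAN2B1 call without any 1 array other than sensitive array 3 and paclitaxel-resistant array 1 (0.0508 to 0.158).

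HEXA, GALNS, ARSA and ARSB, which act on gangliosides and on sulfated sugars and lipids, were not called. Their differences ran from -0.28 to 0.03 in the docetaxel-resistant line and from -0.47 to -0.21 in the paclitaxel-resistant line.

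Of the 6 genes of lipid breakdown and sterol exit, 2 were higher (33.3%) and 1 lower (16.7%) in the docetaxel-resistant line (median difference 0.11). In the paclitaxel-resistant line 1 was higher (16.7%) and 2 lower (33.3%, median -0.20). The background was 10.8% higher and 10.2% lower over all genes in the former line, and 10.8% and 10.7% in the latter. Among genes at or above the median level it was 17.1% and 16.1%, and 17.7% and 16.5%. ASAH1, the acid ceramidase that splits ceramide into sphingosine and fatty acid, had the largest increase of the 36 genes in the paclitaxel-resistant line. Its intensities were 92.3, 49.4 and 69.5 in sensitive, 148, 191 and 250.45 in docetaxel-resistant and 471, 265 and 258 in paclitaxel-resistant cells. No docetaxel-resistant or paclitaxel-resistant array overlapped the sensitive ones, and mean intensity was 2.79 and 4.71 times the sensitive mean. The log2 differences were 1.13 ± 0.21 (adjusted p = 0.00288) and 1.94 ± 0.21 (adjusted p = 8.36e-05), and the difference of 0.81 between the resistant lines was not called (adjusted p = 0.0811). This increase was found in 2 of the 4 probe sets of the gene, as described with the probe sets below.

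LIPA, the acid lipase that frees cholesterol from its esters, had intensities of 413 ± 151 in sensitive, 644 ± 78.1 in docetaxel-resistant and 428 ± 111 in paclitaxel-resistant cells, and was higher by 0.59 ± 0.18 (adjusted p = 0.0374) in the docetaxel-resistant line. That call ended without sensitive array 2 or 3, any docetaxel-resistant array or paclitaxel-resistant array 2 (adjusted p 0.0517 to 0.129). PSAP, the precursor of the saposins that present sphingolipids to their hydrolases, was lower in both lines, at 2417 ± 232, 1599 ± 146 and 1655 ± 234, with log2 differences of -0.61 ± 0.17 (adjusted p = 0.0230) and -0.53 ± 0.17 (adjusted p = 0.0430). NPC2, which hands cholesterol to the membrane protein NPC1, was lower in the paclitaxel-resistant line by -0.49 ± 0.14 (adjusted p = 0.0296) and at -0.09 in the docetaxel-resistant line. The PSAP call ended without sensitive array 2 or docetaxel-resistant array 2 or 3 in the docetaxel-resistant line (adjusted p 0.0549 to 0.0984). In the paclitaxel-resistant line it ended without sensitive array 2 or 3, docetaxel-resistant array 1 or 2 or any paclitaxel-resistant array (0.051 to 0.143), and the NPC2 call ended there without sensitive array 2 or 3 or any paclitaxel-resistant array (0.0511 to 0.107). NPC1 itself was at 0.31 and 0.04, and SMPD1, the acid sphingomyelinase, at -0.23 and -0.44, without a call.

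Of the 5 membrane proteins, 2 were lower (40%) and 1 higher (20%) in each resistant line. Their median difference was -0.10 in the docetaxel-resistant and -0.31 in the paclitaxel-resistant line. Over all genes 10.2% and 10.7% were lower in these lines, and 10.8% higher in each. Among genes at or above the median level 16.1% and 16.5% were lower, and 17.1% and 17.7% higher. LAMP1, one of the most abundant glycoproteins of the lysosomal membrane, read 2117, 1915 and 2249 in sensitive, 1268.5, 1296 and 1213 in docetaxel-resistant and 1030.45, 1316 and 953 in paclitaxel-resistant cells. All 6 resistant arrays lay below the sensitive ones, with differences of -0.77 ± 0.15 (adjusted p = 0.00418) and -0.92 ± 0.15 (adjusted p = 0.00141). LAMP2, its relative that also serves chaperone-mediated autophagy, was at -0.10 and -0.02 in the probe set used. MCOLN1, a calcium channel of the lysosomal membrane, read 124, 85.3 and 132 in sensitive, 57.3, 76.8 and 56.7 in docetaxel-resistant and 81.0, 85.2 and 80.1 in paclitaxel-resistant cells. The docetaxel-resistant arrays were lowest, and paclitaxel-resistant array 2 came within 1 unit of sensitive array 2. The differences were -0.86 ± 0.15 (adjusted p = 0.00172) and -0.46 ± 0.15 (adjusted p = 0.0449). The call in the paclitaxel-resistant line ended without sensitive array 1 or 3, docetaxel-resistant array 1 or any paclitaxel-resistant array (adjusted p 0.0537 to 0.149).

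SCARB2, also called LIMP-2, is the receptor that carries beta-glucocerebrosidase to the lysosome without mannose 6-phosphate. Its intensities were 37.2, 31.4 and 69.0 in sensitive, 125, 151 and 199 in docetaxel-resistant and 104, 132 and 103 in paclitaxel-resistant cells. No resistant array overlapped the sensitive ones, and the means were 3.45 and 2.47 times the sensitive mean. The log2 differences were 1.37 ± 0.20 (adjusted p = 0.000792) and 1.07 ± 0.20 (adjusted p = 0.00318). Averaged over its 3 probe sets, SCARB2 differed by 0.42 in the paclitaxel-resistant line and was not called (adjusted p = 0.0728). CD63, a tetraspanin of late endosomes and exosomes, was at -0.10 and -0.31 without a call.

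**Figure D2:**
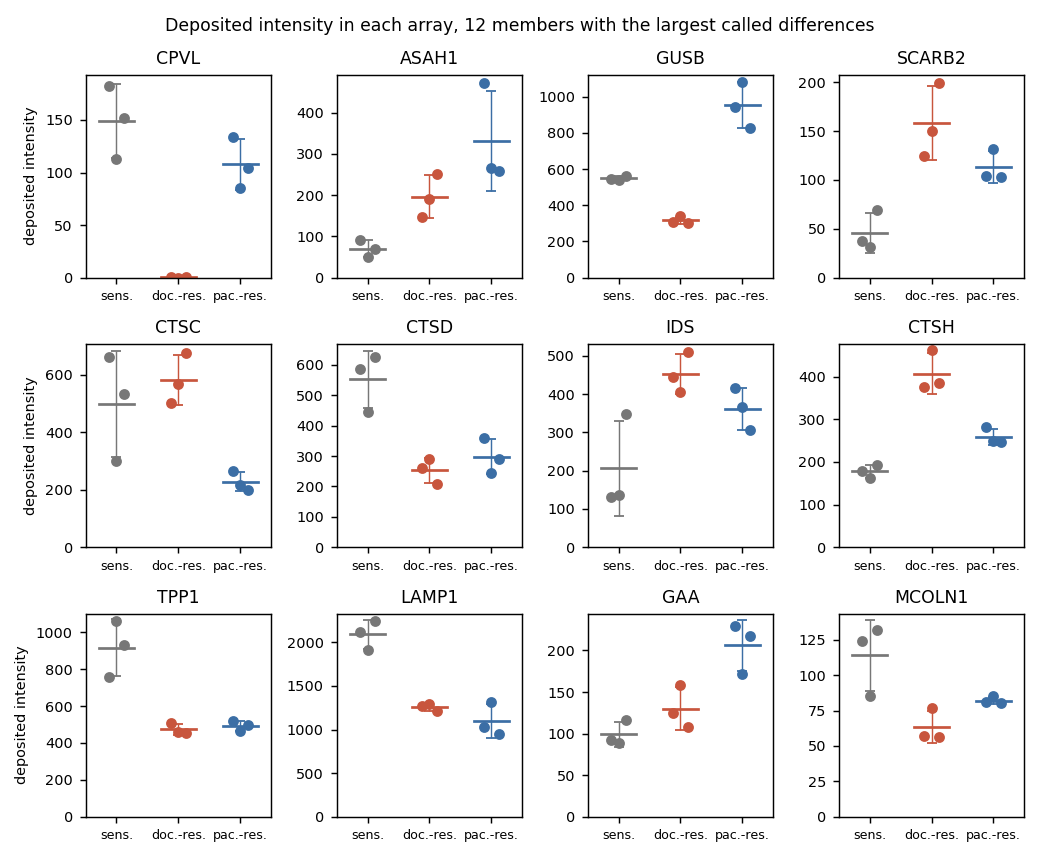
Deposited intensity on a linear scale in each of the 9 arrays for the 12 lysosomal genes with the largest called differences (points are arrays, bars are the mean and SD of 3 arrays per group). CPVL is at or near 0 in the docetaxel-resistant arrays, GUSB forms 3 separate groups, and the sensitive arrays of IDS run from 132 to 348.

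Between the resistant lines 1.96% of all genes were called (0.978% higher and 0.986% lower in the paclitaxel-resistant line), against 4 of the 36 lysosomal genes, with CPVL, GUSB and GAA higher (8.33%) and CTSC lower (2.78%). Among genes at or above the median level 1.79% were higher and 1.71% lower, against 2 (7.14%) and 1 (3.57%) of the 28 lysosomal genes at that level. Normalized arrays of the resistant lines did not overlap for 8 genes that were higher and 8 that were lower, against 20.4% of all genes. For CPVL the difference was 2.91 ± 0.14 (adjusted p = 6.80e-07), and 6.31 and 1.40 with an added constant of 1 and 64. The other 32 genes had differences from -0.53 for CTSH to 0.81 for ASAH1. The intervals of these 32 genes were about as wide as those shown against sensitive cells, so differences of the size seen for LIPA (-0.52, 95% interval from -0.92 to -0.12) or CTSD (0.32, from -0.05 to 0.70) were not called and are not shown to be absent.

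Docetaxel and paclitaxel were used at different doses and on separately selected lines, so no difference between the lines can be assigned to the structure of the drugs. Chromosomal neighbours, the 3 nearest measured genes on each side, were read first for the 4 genes that differed between the resistant lines. In that comparison 1 of 6 neighbours was called for CPVL and 1 of 6 for GUSB, both higher in the paclitaxel-resistant line as the gene itself was, and none of 6 for CTSC or GAA. Of all genes, 1.96% were called there. In the docetaxel-resistant line none of the 6 neighbours of CPVL was called against sensitive cells, where they ran from -0.14 to 0.47. In the paclitaxel-resistant line 3 of the same 6 were called higher, up to 1.22, against 10.8% of all genes, while CPVL itself was lower. Of the neighbours of CTSC, 1 was called lower in both lines, at -2.83 and -2.79. Neighbours were also read for the 8 genes lower in both lines with no called difference between them. Called lower were 3 (docetaxel) and 4 (paclitaxel) of 6 for TPP1, 1 and 3 for PSAP, and 2 and 0 for NEU1. CTSL had 1 in each line, and LAMP1, CTSD, CTSS and MCOLN1 had none. Outside these 8, LGMN had 3 in each line and NPC2 1 and 3. Of all genes 10.2% and 10.7% were lower, and the part of chromosomal position was not tested. The unadjusted test gave p below 0.05 for 13.1% of all genes between the resistant lines.

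Where a gene had several probe sets, these were compared with adjusted p-values over all 22215 human probe sets. All 4 probe sets of LAMP1 were lower and called in both lines, from -0.73 to -1.04 in the docetaxel-resistant and from -0.92 to -1.33 in the paclitaxel-resistant line. TPP1 was lower in all 4, with 3 called in each line, and PSAP was lower and called in both of its probe sets in each line. SCARB2 was higher and called in 2 of 3 probe sets in the docetaxel-resistant line and in 1 of 3 in the paclitaxel-resistant line, and CTSS was called lower in 1 of 2 probe sets in each line.

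Other genes gave different answers from different probe sets. In ASAH1 a second probe set was also higher (1.08 and 1.62), whereas the other 2 were at -0.08 and -0.33 in the docetaxel-resistant and at -0.12 and -0.29 in the paclitaxel-resistant line, without a call. When probe sets ending in _x_at or _s_at, which can match more than 1 transcript, were removed, ASAH1 therefore turned to -0.33 (adjusted p = 0.143) and -0.29 (adjusted p = 0.192). Of the 9 probe sets of IDS, 2 were called and higher in each line, and the other 7 ran from -0.33 to 0.39 in the docetaxel-resistant and from -0.42 to 0.19 in the paclitaxel-resistant line. IDS has a nearby pseudogene of closely similar sequence, and the part of cross-matching probes was not tested. In LAMP2 1 of the 3 probe sets was called and higher in both lines (1.01 and 0.74), unlike the probe set with the strongest signal. In CTSB 2 of the 4 probe sets were called lower in the docetaxel-resistant line (-0.72 and -1.0) and 1 in the paclitaxel-resistant line (-0.90), all 4 being below 0 in both lines. None of the 3 probe sets of IDUA was called at this level. With the mean of all probe sets of a gene, calls were also lost for ASAH1 (0.45, adjusted p = 0.109), CTSS (-0.34, adjusted p = 0.0534) and IDUA (-0.23, adjusted p = 0.198) in the docetaxel-resistant line and for IDS in both lines (0.15, adjusted p = 0.517, and 0.09, adjusted p = 0.742).

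**Figure D3:**
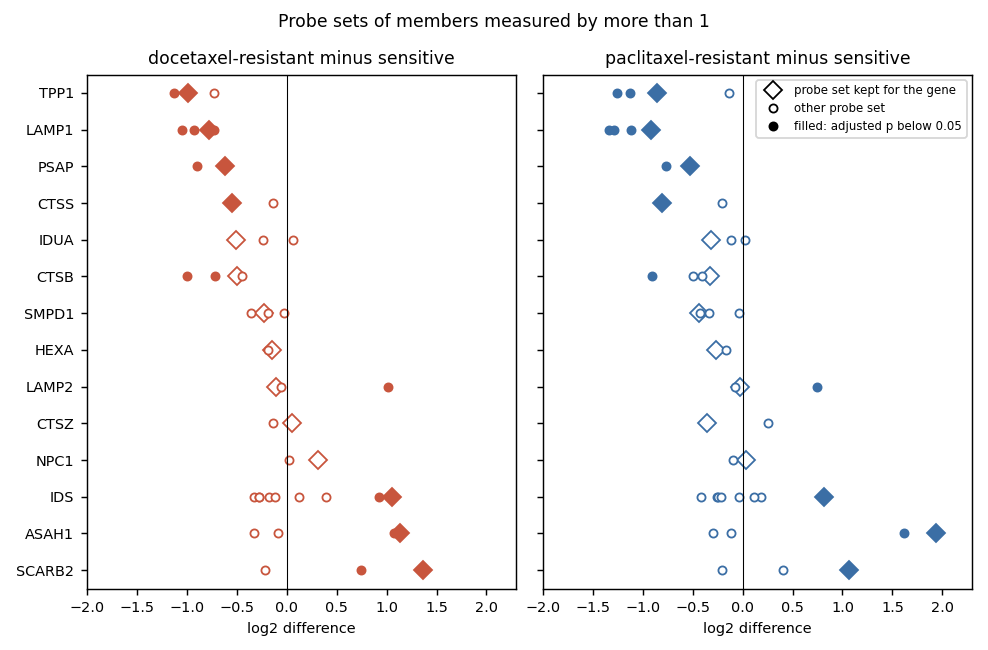
Log2 difference of every probe set for the 14 lysosomal genes with more than 1, against sensitive cells, in the docetaxel-resistant (left) and paclitaxel-resistant (right) line; diamonds are the probe set used for the gene, circles the others, and filled symbols have an adjusted p below 0.05 over all human probe sets. LAMP1, TPP1 and PSAP lie below 0 throughout, whereas ASAH1, IDS and LAMP2 have probe sets that differ from each other.

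Other parts of the lysosomal system were read from lists of named genes, with counts set against the same background. Of 15 measured further hydrolases and cofactors, 2 were higher (13.3%) and 1 lower (6.67%) in the docetaxel-resistant line. In the paclitaxel-resistant line 4 were higher (26.7%) and 2 lower (13.3%). The background was 10.8% higher and 10.2% lower over all genes in the former line, and 10.8% and 10.7% in the latter. Among genes at or above the median level it was 17.1% and 16.1%, and 17.7% and 16.5%. Cathepsin F (CTSF) fell from a mean intensity of 224 ± 22.0 (SD, n = 3) to 5.91 ± 3.81 and 7.70 ± 1.43, with log2 differences of -3.53 ± 0.16 (SE, adjusted p = 8.48e-08) and -3.38 ± 0.16 (adjusted p = 1.57e-07). As the resistant means lie below the added constant of 16, the size of these differences is set largely by that constant. GALC, which degrades galactosylceramide, was higher in both lines, at 0.82 ± 0.20 (adjusted p = 0.0123) and 0.86 ± 0.20 (adjusted p = 0.00960). GM2A, the ganglioside activator, was higher in the docetaxel-resistant line (0.49, adjusted p = 0.0255), and FUCA1, the fucosidase, and HGSNAT, an acetyltransferase of heparan sulfate breakdown, in the paclitaxel-resistant line (0.81, adjusted p = 0.00128, and 0.79, adjusted p = 0.00352). HGSNAT was also higher in the paclitaxel- than in the docetaxel-resistant line (0.73, adjusted p = 0.0330).

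Among 14 further membrane proteins, 3 were lower (21.4%) and 2 higher (14.3%) in the docetaxel-resistant line. In the paclitaxel-resistant line 6 were lower (42.9%) and 1 higher (7.14%). The background was 10.2% lower and 10.8% higher over all genes in the former line, and 10.7% and 10.8% in the latter. Among genes at or above the median level it was 16.1% and 17.1%, and 16.5% and 17.7%. The peptide transporter ABCB9 (-1.30 and -1.40), the cystine exporter CTNS (-1.20 and -0.82) and the cation channel TPCN1 (-0.79 and -0.88) were lower in both lines. The vacuolar proton pump, which acidifies the lysosome, had 3 lower (18.8%) and 1 higher (6.25%) of 16 measured subunits in the docetaxel-resistant line. In the paclitaxel-resistant line the pump had 4 lower (25%) and 2 higher (12.5%), against the same background. Its subunits moved in opposite directions: ATP6V0B of the membrane sector was lower by -1.15 ± 0.15 (adjusted p = 0.000327) and -0.98 ± 0.15 (adjusted p = 0.000896), and the catalytic subunit ATP6V1A was higher by 1.39 ± 0.23 (adjusted p = 0.00137) and 1.18 ± 0.23 (adjusted p = 0.00335). ATP6V1B2 was lower in the docetaxel-resistant line (-0.46, adjusted p = 0.0228) and ATP6V0A2 in the paclitaxel-resistant line (-1.11, adjusted p = 0.00108).

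Sorting receptors and trafficking components had 8 higher and 1 lower of 23 in the docetaxel-resistant line (34.8% higher, against 10.8% of all genes and 17.1% of those at or above the median level) and 6 higher and 3 lower in the paclitaxel-resistant line (26.1% higher, against 10.8% and 17.7%). The retromer subunit VPS35 rose from a mean intensity of 165 ± 126 (SD, n = 3) to 738 ± 243 and 747 ± 198, with log2 differences of 2.15 ± 0.34 (SE, adjusted p = 0.00125) and 2.24 ± 0.34 (adjusted p = 0.000890). RAB9A, the small GTPase of transport from late endosomes to the Golgi, was higher by 1.5 ± 0.19 (adjusted p = 0.000288) and 0.82 ± 0.19 (adjusted p = 0.0101), and the adaptor subunit AP3D1 by 0.87 (adjusted p = 0.00586) and 0.76 (adjusted p = 0.0117). TSG101, of the sorting complex ESCRT, was higher by 0.44 (adjusted p = 0.0257) and 0.59 (adjusted p = 0.00565). The cation-dependent mannose 6-phosphate receptor M6PR was lower in the paclitaxel-resistant line, by -0.82 ± 0.14 (adjusted p = 0.00177) against sensitive and -0.73 ± 0.14 (adjusted p = 0.0236) against docetaxel-resistant cells.

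Of 14 transcription factors and nutrient-sensing genes that control lysosomal genes, 2 were higher (14.3%) and 1 lower (7.14%) in each resistant line. Over all genes 10.8% were higher in each line, and 10.2% (docetaxel) and 10.7% (paclitaxel) lower. Among genes at or above the median level 17.1% and 17.7% were higher, and 16.1% and 16.5% lower. MITF rose from 40.4 ± 11.4 to 244 ± 76.0 and 248 ± 76.1, with log2 differences of 2.03 ± 0.20 (adjusted p = 5.88e-05) and 2.17 ± 0.20 (adjusted p = 3.06e-05). TFE3 fell from 733 ± 248 to 219 ± 37.7 and 237 ± 47.1, by -1.77 ± 0.26 (adjusted p = 0.000680) and -1.55 ± 0.26 (adjusted p = 0.00142). The Rag GTPase RRAGD was higher by 0.63 (adjusted p = 0.00781) and 0.58 (adjusted p = 0.0120). As MITF also defines melanocytes, their other markers were read: TYR, TYRP1, MLANA and PMEL were not called, and their mean intensities were at most 52.9 in any group.

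Among 13 protease inhibitors, 4 were lower (30.8%) and none higher in the docetaxel-resistant line, against 10.2% and 10.8% of all genes. In the paclitaxel-resistant line 1 was lower (7.69%) and 2 higher (15.4%), against 10.7% and 10.8%. Genes at or above the median level gave 16.1% and 17.1% in the former line, and 16.5% and 17.7% in the latter. Between the lines 3 were higher in the paclitaxel-resistant line (23.1%), against 0.978% of all genes. Cystatin M (CST6) fell from 544 ± 76.6 to 29.4 ± 9.21 and 25.3 ± 3.13, with log2 differences of -3.70 ± 0.17 (adjusted p = 8.03e-08) and -3.79 ± 0.17 (adjusted p = 8.50e-08). SERPINB1 (-0.74, adjusted p = 0.00410) and cystatin C (CST3, -0.74, adjusted p = 0.0175) were lower in the docetaxel-resistant line. CST4 and CST1, cystatins of secretory fluids with closely similar sequences, were higher in the paclitaxel-resistant line by 0.95 (adjusted p = 0.0139) and 0.69 (adjusted p = 0.0353) against sensitive cells and by 1.52 (adjusted p = 0.00827) and 1.14 (adjusted p = 0.0179) against docetaxel-resistant cells. SERPINB1 was also higher in the latter comparison (0.87, adjusted p = 0.0126).

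The 24 autophagy genes gave 5 higher and 3 lower in the docetaxel-resistant and 3 higher and 4 lower in the paclitaxel-resistant line. These shares, 20.8% and 12.5% in the former and 12.5% and 16.7% in the latter, were near those of genes at or above the median level (17.1% and 16.1%, and 17.7% and 16.5%). PIK3C3, the lipid kinase VPS34, was higher by 1.71 ± 0.35 (adjusted p = 0.00490) and 1.90 ± 0.35 (adjusted p = 0.00249), and GABARAPL2, which is attached to autophagosome membranes, by 1.06 ± 0.14 (adjusted p = 0.000375) and 0.82 ± 0.14 (adjusted p = 0.00174). The initiating kinase ULK1 was lower by -1.07 ± 0.15 (adjusted p = 0.000534) and -0.84 ± 0.15 (adjusted p = 0.00208). VAMP8, a fusion protein of autophagosomes and lysosomes, was higher in the paclitaxel- than in the docetaxel-resistant line (0.59, adjusted p = 0.0475).

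**Figure D4:**
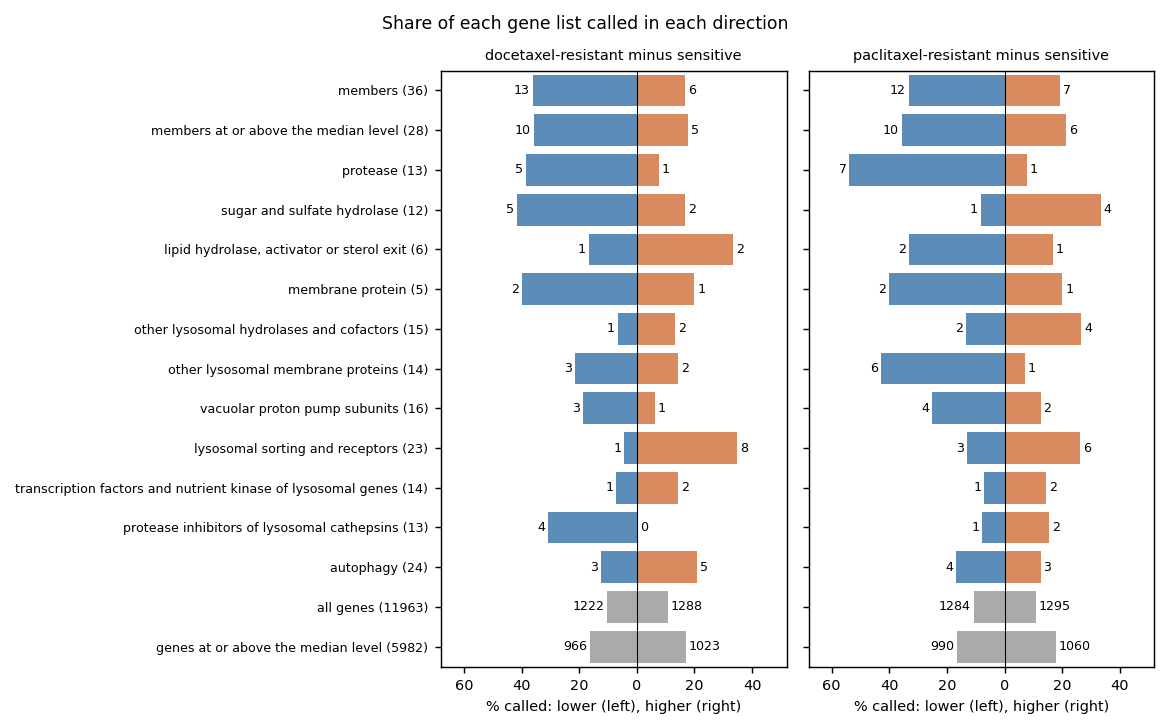
Share of the measured genes of each list that was called lower (left of 0) or higher (right of 0) than in sensitive cells, in percent, with the number of genes beside each bar and the number measured in brackets. Grey bars are all genes and genes at or above the median level. The lysosomal genes are called lower in 36.1% and 33.3%, against 10.2% and 10.7% of all genes, and the trafficking list is called higher in 34.8% in the docetaxel-resistant line. All lists were chosen with earlier results of these data known.

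Across the 9 arrays the median deposited intensity ran from 33.7 in sensitive array 2 to 43.9 in docetaxel-resistant array 3, and arrays of 1 group correlated at 0.967 to 0.992 across genes. Markers of cell type were read, and the identity of the cells was not tested. Of 6 measured markers of basal or mesenchymal cells 5 lay at or above the median intensity in each group. Of 9 luminal breast markers 5 also did, the keratin genes KRT8, KRT18 and KRT19 being the strongest, while the hormone receptor genes ESR1 and PGR had mean intensities of at most 42.2 and 9.6. Of these 9 FOXA1 was called, higher by 0.78 ± 0.13 (adjusted p = 0.00189) and 1.02 ± 0.13 (adjusted p = 0.000345), and their summed intensity was 5953 to 7073 in sensitive, 5867 to 6746 in docetaxel-resistant and 5770 (5769.76) to 5957 in paclitaxel-resistant arrays. The summed intensity of the 6 basal or mesenchymal markers was 12710 to 15185 in sensitive arrays, 8182 to 8896 in docetaxel-resistant and 8755 to 9756 in paclitaxel-resistant arrays. Of these 6, 3 were called lower (50%), none higher and 3 were not called in each line. Over all genes 10.2% and 10.7% were lower, and 16.1% and 16.5% of genes at or above the median level. VIM was lower by -0.74 ± 0.13 (adjusted p = 0.00229) and -0.60 ± 0.13 (adjusted p = 0.00737). FN1 was lower by -1.69 ± 0.19 (adjusted p = 0.000142) and -0.69 ± 0.19 (adjusted p = 0.0252). These 2 markers moved in the direction of the lower lysosomal genes, and the part of the 6 in the results was not tested.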

How the data were processed

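Total RNA of 9 cultures was hybridized to Affymetrix HU133A arrays, 3 per group. The deposited table gives an intensity on a linear scale per probe set and array. Per the submitters' processing notes, the authors used Affymetrix Expression Console 1.1.2 and PLIER, which summarizes probes into probe sets; for background correction, scaling between arrays and detection calls, the step used is not given in the sources used here. No depth exists for arrays, so the number of arrays limits the precision.

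Of 22283 probe sets 68 controls were removed, and 19065 of the remaining 22215 named 1 gene; genes come from the platform annotation, updated through RefSeq identifiers for 19053 of these. From the deposited intensities, log2(intensity + 16) was computed. Array medians differed by 0.27, above the limit of 0.2 set for this, so all human probe sets were quantile-normalized. The constant of 16 understates differences that start from a low intensity. The probe set with the strongest average signal stood for each gene (11963 genes).

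Tests used limma 3.58.1 in R 4.3.3 on 3 group means with 3 contrasts (6 residual and 5.40 prior degrees of freedom); p-values are two-sided and Benjamini-Hochberg adjusted within a contrast. The procedure was tested on simulated data. Replicate numbers did not pair the samples: deviations of same-numbered arrays from their group means correlated at -0.452 to 0.337. Those of differently numbered arrays of different groups correlated at -0.452 to 0.474, and the main model has no term for such shared deviations. Alternatives changed the constant, normalization, probe set choice, filter, spread model, array weights, replicate block and the arrays used. Members called in any contrast are named, with per-array values for the 12 with the largest called difference, and up to 3 called genes with the smallest adjusted p per contrast from each other list; single marker genes were picked for naming with their values known. The members and lists were chosen with earlier results of these data known. Promoter sequences are from RefSeq (GRCh38.p14). Proteins are not printed here.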

Additional observations from a re-analysis of the deposited data

Results flagged for a closer look

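In 4 lysosomal genes the effects of the resistant lines against the same sensitive cells differed from each other by a direct test of paclitaxel-resistant minus docetaxel-resistant cells, with limma's adjusted p over all genes. CPVL differed by 2.91 (adjusted p = 6.80e-07), with all 3 docetaxel-resistant arrays at or near 0. GUSB differed by 1.61 (adjusted p = 0.000259), with opposite called differences in the lines against sensitive cells. CTSC differed by -1.22 (adjusted p = 0.00569), the paclitaxel-resistant arrays being lowest. GAA differed by 0.75 (adjusted p = 0.0453), and this call was lost in 15 of the 21 alternative settings.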

How the results depend on the processing

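Of 42 called differences of lysosomal genes, 18 were called in every alternative that held the gene: LAMP1, CTSD and GUSB in both lines, CPVL, CTSH, SCARB2 and MCOLN1 in the docetaxel-resistant line, CTSC, CTSL, CTSS, GAA and NEU1 in the paclitaxel-resistant line, and CPVL, GUSB and CTSC between the lines. Only ASAH1 reversed, to -0.33 and -0.29 when probe sets with the endings _x_at or _s_at were removed, through use of another probe set. The 3 arrays per group limit what can be called, and signal near the constant of 16 holds no order.

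Lower genes in the docetaxel-resistant line went from 13 to 7 with a constant of 1, 7 without normalization between arrays, 6 of 25 measured without those probe sets, and 6 when the array with the lowest and that with the highest median were left out, and higher genes from 6 to 3 in the last setting. Without those probe sets the paclitaxel-resistant line had 4 higher and 6 lower, and 1 was higher between the lines. Lower genes between the lines went from 1 to 3 with a constant of 64, 2 among genes at or above the median level, and 5 with array weights. Of all genes, 1431 (docetaxel), 1495 (paclitaxel) and 110 (between lines) were called without those probe sets, 1341 (docetaxel) and 137 (between lines) with those extreme arrays left out, and between the lines 72 with a constant of 1, 143 without normalization and 785 with array weights. The cause of these changes was not tested beyond the smaller number of genes or arrays where that applies.

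The replicate number as a block, which does not pair these samples, gave 5 higher and 12 lower genes in the docetaxel-resistant line, 5 higher and 9 lower in the paclitaxel-resistant line and 2 higher and 1 lower between the lines, and moved the calls over all genes to 2291, 2387 and 139. With each array left out in turn, members higher and lower ran from 3 to 6 and 7 to 12 (docetaxel), 4 to 6 and 7 to 13 (paclitaxel) and 2 to 3 and 1 to 1 (between lines), and genes called from 1638 to 2591, 1893 to 2706 and 78 to 294. The last count, 235 with all arrays, was 96, 78 and 104 without docetaxel-resistant arrays 1, 2 and 3, and 138, 103 and 96 without paclitaxel-resistant arrays 1, 2 and 3.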
